A study of Paralichthys olivaceus with 2 samples.

Results

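The probes described here target microRNAs (miRNAs) whose numbers lie in ranges that include many miRNAs described from fish. They were chosen by name: zebrafish (dre), fugu (fru) or Tetraodon (tni) probes without a star, from miR-454 to miR-462 with miR-457 left out, or with a number of 700 and over. This gave 48 of the 987 probes on the array, or 48 of 231 conserved probes without a star, and they carry 46 mature names. Of the 48, 46 are zebrafish probes, and fru-miR-458 and tni-miR-458 are the others. The samples were larvae, taken whole, of Paralichthys olivaceus, the Japanese flounder, which settles on its side at metamorphosis. One array held RNA of mid-metamorphic larvae at 29 days post hatching (dph), and the other held RNA of pre-metamorphic larvae at 17 dph. Each tube pooled 5 larvae, and the labels give no strain, sex or treatment beyond the anaesthetic used at collection. With 1 array per stage, no difference has a replicate check and no p-value was computed.

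A miRNA is a short RNA that guides the silencing machinery to partly complementary mRNAs, and it recognises its targets mainly through its seed, bases 2 to 8 from the 5′ end. miRNA numbers were given in order of registration, so the ranges record when a miRNA was described and not what it does. miR-454 and miR-455 are also known in mammals, and miR-456, miR-458, miR-460 and miR-2188 also in birds, so the ranges are not those of fish alone.

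The targets of the 11 probes that were detected are shown because the results rest on them. They are written 5′ to 3′ as deposited for the array, with the seed in capitals.
miR-454b: uAGUGCAAuauugcuuauaggg
miR-455: uAUGUGCCcuuggacuacaucg
miR-455b: gUAUGUGCccuuggacuacauu
miR-456: cAGGCUGGuuagaugguuguca
miR-460-5p: cCUGCAUUguacacacugugcg
miR-462: uAACGGAAcccauaaugcagcu
miR-724: uUAAAGGGaauuugcgacuguu
miR-727: gUUGAGGCgaguugaagacuua
miR-730: uCCUCAUUgugcaugcugugugu
miR-1788: gGCUUGUUuuaaguugccugcg
miR-2188: aAGGUCCAaccucacaugucc
No seed was shared among these 11. The 48 members had 45 distinct seeds, since miR-454a shares that of miR-454b and the 3 miR-458 probes share theirs. miR-455 and miR-455b hold a common run of 20 bases, but the target of miR-455b starts 1 base earlier, which moves its seed by 1 base.

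Each probe was printed in 3 spots, and each value below is a spot's mean density, a linear intensity without background subtraction. The SD is over the 3 spots and covers the technical spread within 1 array. The median over the 715 empty spots was 38.8 at 29 dph and 45.6 at 17 dph. Detection of a probe required 2 or more of the 3 spots to exceed a limit, set at 3 SD over the mean of the empty spots. This limit was 45.6 at 29 dph and 68.7 at 17 dph. The limit at 17 dph is raised in part by 2 bright empty spots, and the value without them is given below. As a check of the whole-larva RNA, markers of muscle (miR-206, miR-133a and miR-133b), liver (miR-122), gut (miR-192), nervous system (miR-124) and skin (miR-203a and miR-203b) were detected on both arrays, and miR-133c at 29 dph alone. The muscle miRNA miR-206 had a density of 10711 ± 254 at 29 dph and 1653 ± 52.0 at 17 dph, and was the brightest conserved probe at 29 dph. The brightest at 17 dph was miR-214, with 4326 ± 203 at 29 dph and 1968 ± 135 at 17 dph.

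Most of these miRNAs gave no signal above the empty spots. At 29 dph 11 of the 48 probes (22.9%) were detected, against 113 of the 183 other conserved probes (61.7%) and 53.7% of all 231. At 17 dph 2 of the 48 (4.17%) were detected, against 63 of the 183 others (34.4%) and 28.1% of all 231. Both probes detected at 17 dph, miR-455 and miR-455b, were also detected at 29 dph. The probes were designed on zebrafish and pufferfish sequences, so a dim spot shows that the flounder RNA did not light that probe and not that the miRNA is absent. In whole larvae, fewer cells that make a miRNA and less of it per cell cannot be told apart.

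The detected share differed along the number ranges. Of the 13 probes from miR-454 to miR-462, 6 were detected at 29 dph. Of the 18 from miR-722 to miR-740 the count was 3 (miR-724, miR-727 and miR-730), and of miR-1388 and miR-1788 it was 1. Of the 15 from miR-2184 to miR-2198, it was 1 (miR-2188). The shares were therefore higher in the first range than in the second and in the last, as a count without a test. The share of the first range, 46.2%, was still below the 53.7% of all 231 conserved probes. It counts both miR-455 and miR-455b, whose targets overlap.

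miR-455, made from an intron of a cartilage collagen gene and known from vertebrate cartilage, was the brightest member on both arrays. Its 3 spots had densities of 318, 335 and 357 at 29 dph, and 137, 153 and 119.7 at 17 dph. All its spots lay above the detection limit on both arrays, and the spots of the 2 stages did not overlap in density. The mean was 337 ± 19.2 at 29 dph, 7.39 times the detection limit, and 136 ± 16.4 at 17 dph, 1.99 times the limit there.

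miR-455b, the related target, was next. Its spots had densities of 258, 228 and 256 at 29 dph, and 109, 113 and 109 at 17 dph. Between the overlapping parts of the targets 1 base differs, C21U, counted from the 5′ end of miR-455. Both probes were thus brighter at 29 dph by density, and with 20 bases in common they are not separate observations. The ratio of miR-455b to miR-455 was 0.734 at 29 dph and 0.807 at 17 dph.

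A further pair of members had densities over 100 at 29 dph, where 4 of the 11 did in all. The 5p arm of miR-460, a miRNA shared by fish and birds, had spots of 137, 126 and 148 at 29 dph, against 46.9, 46.2 and 49.9 at 17 dph. The probe therefore went with the empty spots at 17 dph and stood 3.003 times over the limit at 29 dph. The other arm did not follow, since miR-460-3p had a mean of 38.9 ± 2.19 at 29 dph and 42.5 ± 1.18 at 17 dph, both at the level of the empty spots. miR-724 had spots of 102, 109 and 119 at 29 dph, against 60.2, 53.0 and 58.5 at 17 dph. Its spots did not overlap between the arrays, and none passed the limit at 17 dph.

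A middle group of 3 had densities of 55 to 100 at 29 dph. miR-2188, known in fish, frogs and birds, had spots of 84.8, 77.9 and 92.6 at 29 dph and of 68.2, 73.9 and 59.6 at 17 dph. One of its spots passed the limit at 17 dph, so it came closest to detection there. miR-730 had spots of 73.0, 67.8 and 82.6 at 29 dph and of 51.3, 49.6 and 53.1 at 17 dph. miR-456 had spots of 71.0, 63.2 and 78.3 at 29 dph and of 51.1, 61.2 and 49.4 at 17 dph. All 3 had spot ranges that lay higher at 29 dph without overlap, by narrow margins for miR-456 and miR-2188.

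The remaining 4 lay within a few units of the limit at 29 dph. miR-462, which in teleosts lies in a cluster with miR-731 and responds to viral infection, had spots of 52.1, 49.2 and 50.7 at 29 dph and of 44.9, 46.6 and 44.2 at 17 dph. Its cluster partner miR-731 was not detected, with means of 39.4 ± 1.35 at 29 dph and 45.0 ± 1.11 at 17 dph. miR-454b had spots of 48.0, 51.3 and 49.0 at 29 dph and of 43.5, 46.9 and 42.0 at 17 dph. These spots were above every empty spot at 29 dph, where the brightest of the 715 was 44.7.

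miR-727 had spots of 46.3, 47.3 and 52.2 at 29 dph, against 50.9, 52.1 and 51.4 at 17 dph, so its densities overlapped between the stages. miR-1788 was the dimmest detected member. Its spots were 40.5, 46.0 and 45.7 at 29 dph, against 42.0, 52.5 and 48.3 at 17 dph. Its call rested on 2 of 3 spots and its mean of 44.1 lay below the limit, whereas the other 10 detected members had every spot above it. The median spot CV of the 11 was 7.04% at 29 dph, with a range of 2.87% to 10.7%.

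Next to the other conserved probes the members were dim. Their median density at 29 dph was 39.6, against 68.7 for the 183 others, and at 17 dph it was 44.2, against 47.9. Both medians at 17 dph lay below the detection limit of that array, so they compare mostly undetected probes. Among the 124 conserved probes detected at 29 dph, the 11 stood at a median percentile of 23.8 by density, with a range of 0.403 to 64.1. miR-455 and miR-455b were the 2 members brighter than the median of these 124, which was 205. miR-455 ranked 45 of 231 at 29 dph and 34 of 231 at 17 dph, and miR-455b ranked 55 and 40. Of these 231, only 65 were detected at 17 dph. Among the conserved probes detected on each array, miR-455 stood at percentile 64.1 at 29 dph and 48.5 at 17 dph. miR-455b stood at 56.0 and 39.2. No member reached a density of 1000 on either array, a level that 16 of the 183 others passed at 29 dph and 5 at 17 dph. These ranks set different probes side by side, whose binding differs, so they describe brightness and not the amount of RNA.

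The 37 members not detected on either array had mean densities of 36.9 to 43.6 at 29 dph and of 39.4 to 47.4 at 17 dph, within the range of the empty spots. None of them had a spot above the limit at 29 dph. Those closest to it were miR-735 at 43.6 ± 0.16, miR-2185 at 42.8 ± 1.72 and miR-738 at 42.2 ± 0.98. At 17 dph the closest were miR-2185 at 47.4 ± 2.08, miR-2198 at 47.3 ± 2.01 and miR-738 at 46.2 ± 1.75. The GC content of undetected targets ran from 19.0% to 78.3% with a median of 42.9%, and that of detected targets from 36.4% to 54.5% with a median of 47.8%. The detected targets thus lay in the middle of the range.

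The undetected members in the lowest range were miR-454a, the 3 miR-458 probes, miR-459, miR-460-3p and miR-461. From miR-722 to miR-740 they were miR-722, whose overexpression slows neutrophils in zebrafish, miR-723, miR-725, miR-726, miR-728, miR-729, miR-731 to miR-738 and miR-740. miR-1388 was not detected either. In the last range, miR-2184 to miR-2187 and miR-2189 to miR-2198 were not detected. The array also carried star probes for 8 member names. These had densities of 37.6 to 40.6 at 29 dph and of 40.8 to 46.1 at 17 dph, and none was detected.

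At 17 dph 2 empty spots were brighter than 100, the brighter at 198. Without them the limit was 55.9, still above the 45.6 of 29 dph, and 4 of 48 members and 73 of 183 others were detected at 17 dph. The members gained were miR-724 and miR-2188. The conserved probes lie in rows 9 to 38 of the array, where 101 empty spots were dimmer than those of the whole array, with limits of 42.9 at 29 dph and 52.0 at 17 dph. With these limits 13 members were detected at 29 dph, miR-735 and miR-2185 being added, and 4 at 17 dph. The others stood at 119 and 79 of 183, so the members' share stayed below that of the others on both arrays.

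Several members could be read a second time. The array carries candidate probes with PC and PN codes, and 17 of these share at least 16 consecutive bases with the target of a member, for 13 members in all. At 29 dph 556 of all 724 candidate probes (76.8%) were detected. For 7 members detected at 29 dph, a candidate was detected there too. For 5 of the other 6 no candidate was, and these were miR-459, miR-722, miR-725, miR-731 and miR-2187. PN198, whose target lies within that of miR-722, had a density of 39.3 ± 0.30 at 29 dph. PN199, which departs from the target of miR-731 by C23U and lacks its last base, had one of 39.5 ± 1.01.

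The second probes of miR-454b were far brighter than the member itself. Their targets are shown with capitals for bases that are not in the target of miR-454b, and that of miR-454a with its seed in capitals.
PN220: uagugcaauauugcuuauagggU
PN89: agugcaauauugcuuauagggUC
miR-454a: uAGUGCAAuauugcuaauaggg
PN220 holds the whole target of miR-454b plus 1 base at the 3′ end. Its density was 373 ± 36.2 at 29 dph and 65.5 ± 2.98 at 17 dph, against 49.4 ± 1.67 at 29 dph and 44.1 ± 2.54 at 17 dph for miR-454b. PN89 lacks the first base of that target and adds 2 bases at the 3′ end, and it had 559 ± 39.9 at 29 dph and 134 ± 2.15 at 17 dph. By density, background included, PN220 was 7.55 times as bright as miR-454b at 29 dph. miR-454a, which differs from miR-454b by A16U, had 40.04 ± 0.89 at 29 dph and 42.6 ± 2.26 at 17 dph and was not detected.

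In 5 cases a candidate held the whole target of a member plus 1 base at the 3′ end, PN220 among them. PN188, the one for miR-460-5p, was dimmer than the member, at 97.2 ± 15.0 against 137 ± 11.1 at 29 dph. PN222, the one for miR-462, had 49.7 ± 1.80 against 50.6 ± 1.46. The target of PC204, the one for miR-2184, is shown with the added base in capitals.
PC204: aacaguaagaguuuaugugcuG
PC204 was detected at 29 dph with 65.7 ± 5.96, against 41.8 ± 0.28 for miR-2184, which was not. It was the 1 case in which an undetected member had a detected second probe at 29 dph. PC424, with 1 base more than miR-2188, had 94.2 ± 10.7 at 29 dph and 77.2 ± 7.80 at 17 dph, so that it passed the limit at 17 dph where miR-2188, at 67.2 ± 7.23, did not.

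Second probes with a single changed or missing base gave densities, background included, near those of the member for miR-456 and miR-730. PN184, which departs from the target of miR-456 by A22U, had 80.9 ± 6.68 at 29 dph, against 70.8 ± 7.60 for miR-456. PC110 and PN225 depart from miR-727 by U21A and A22C, and they had 57.4 ± 3.56 and 55.1 ± 1.64 at 29 dph, against 48.6 ± 3.12 for miR-727. PN203, within miR-730, had 72.7 ± 9.66, against 74.4 ± 7.53 for miR-730. The differences from the members are of the size of the spot SDs for miR-456 and miR-730. For miR-727 they were larger than the spot SDs.

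The seed of miR-454b is that of the miR-130 and miR-301 family, and 6 other conserved probes carry it. Of these, 2 were detected at 29 dph and 1 at 17 dph. miR-130b had a density of 388 ± 40.7 at 29 dph and 106 ± 11.6 at 17 dph, and miR-130c had 52.6 ± 5.80 at 29 dph and 45.9 ± 1.45 at 17 dph. miR-130a, miR-301a, miR-301b and miR-301c had 37.0 to 40.2 at 29 dph and were not detected on either array. The other 10 detected members had no conserved probe with the same seed outside the set.

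The stages were compared after scaling, because the median over all probe spots was a density of 139 at 29 dph, against 55.4 at 17 dph. By density 9 of the 11 detected members had spots that lay higher at 29 dph without overlap, and 0 lay lower. The same count is not given for other probes, and the whole array was brighter at 29 dph. The count is therefore not read as a trait of the members. With background correction but no scaling, 63 of the 113 other detected conserved probes were at least 2-fold higher without overlap. Of the 11 members 3 were. After background correction and quantile normalization, a call needed a log2 difference, taken as 29 dph minus 17 dph, of 1 or more in size and no overlap of the spot ranges. No member was called in either direction, while of the 124 detected conserved probes 8.87% were called higher and 17.7% lower. For the members not detected at 17 dph, a higher call was out of reach in this processing. Their highest normalized signal at 29 dph was 6.70 on the log2 scale (miR-460-5p), and the lowest of the 48 members at 17 dph was 5.76. The lack of higher calls is therefore no result about them. For those other than miR-724 and miR-2188, a lower call was out of reach too. Their highest normalized signal at 17 dph was 6.55 (miR-456), and the lowest of the 48 members at 29 dph was 5.76 (miR-2194). The lack of lower calls is therefore no result about these either. The measured median of the 11 was -0.27, against -0.29 for the 113 other detected conserved probes. It includes 9 members that were not detected at 17 dph, so it is no measure of their change.

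The 2 members detected on both arrays have a measured difference. That of miR-455 was -0.93, with a normalized signal of 7.52 ± 0.054 on the log2 scale at 29 dph, against 8.45 ± 0.19 at 17 dph. miR-455b had a difference of -0.87, with 7.22 ± 0.066 at 29 dph and 8.09 ± 0.032 at 17 dph. Both thus had brighter spots at 29 dph and a lower normalized signal there. Quantile normalization gives the 2 arrays the same distribution over all probes. The differences of miR-455 and miR-455b were also negative with cyclic loess (-1.01 and -0.94) and with scaling to the 75th percentile (-1.68 and -1.83). The cause of the change of sign was not tested. Without scaling between the arrays the differences turned to 1.23 and 1.07, against a median of 1.10 for the others. Set against the median of the others in each of the 8 ways of processing, miR-455b was below it in 8 and miR-455 in 6, with distances of -0.95 to 0.12 for miR-455. No scaling and scaling to the 75th percentile shift every probe alike, so these 2 ways give the same distance. Of the 113 others 63 were detected on both arrays, so their median also includes probes that were not detected at 17 dph. These distances therefore do not set miR-455 and miR-455b against probes detected on both arrays alone.

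For the 9 members detected at 29 dph alone, the signal at 17 dph is a bound. Against the lowest normalized signal among probes detected at 17 dph, the fold was under 1 for each of the 9, so neither a fold nor a direction is given for them. A second probe was detected on both arrays for 2 of these members. PC424, with the target of miR-2188, had a difference of -1.004 and was called lower, although its density was higher at 29 dph. That difference barely passed the call threshold, and its density of 77.2 at 17 dph was under a limit of 5 SD over the mean, 83.8. Of the 556 detected candidates 60 were called lower. Of the second probes of miR-454b, PN89 was detected on both arrays and had a difference of -0.38.

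The authors' deposited table gives 1 processed intensity per probe, with its background and scaling steps unknown. In the authors' deposited table miR-455 had 98.2 at 29 dph and 289 at 17 dph, and miR-455b had 68.7 at 29 dph and 209 at 17 dph. Of the 11 detected members, 10 had a lower value at 29 dph in the authors' deposited table, and of all 48 members 45 did. The undetected members had low values there, at most 2.51 at 29 dph and 13.9 at 17 dph. The share over other probes is not given, so these counts are not read as a trait of the members. miR-460-5p was the exception among the 11, with 41.0 at 29 dph and 15.3 at 17 dph in the authors' deposited table. The median over all probes of the authors' deposited table was 41.0 at 29 dph and 37.1 at 17 dph. For miR-455, the density and the authors' deposited table therefore put the brighter stage on opposite sides.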

How the data were processed

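Per the labels' protocols, total RNA of 5 whole larvae was extracted with Trizol, RNAs under 300 nt were isolated by filtration, tailed with poly(A), tagged and stained with Cy5. The authors deposited 1 mean density per spot, a linear intensity, for 3968 spots per array, and a series table with 1 processed intensity per probe, whose scale is linear and whose steps the sources used here do not give. It followed the densities with rank correlations of 0.999 at 29 dph and 0.997 at 17 dph across probes. The number of arrays limits the precision.

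Densities of 2961 probe spots were corrected with normexp (limma 3.58.1, R 4.3.3, offset 50, fitted on all spots), put on the log2 scale, quantile-normalized between the 2 deposited arrays and reduced to a mean per probe. A second probe shares at least 16 consecutive bases with a member's target. Counts were made per probe in pandas 2.3.3 and SciPy 1.17.1 under Python 3.11.15, and the calls were tested on simulated data in which raised and lowered probes were matched in size. Without this matching, quantile normalization shrank the differences, fewer were called and a few unchanged probes were called. Unbalanced changes may therefore be missed or miscalled. The matched changes left the simulated brightness distributions alike, which favours quantile normalization, whereas the deposited arrays differed in median density. Most members were also at background at the earlier stage. The simulation is therefore no check of the calls on members. All detected members were named, with the 3 undetected ones closest to the limit on each array. Alternatives were other detection limits, other scalings and background steps, a 1.5-fold threshold and the authors' table, quantile-normalized on the log2 scale. The members, lists and thresholds were chosen with earlier results of these data known.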

Additional observations from a re-analysis of the deposited data

Results flagged for a closer look

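Signal appeared on candidate probes, which enter none of the counts of members, where the member's own probe was below the detection limit. PC204, which holds the target of miR-2184, had a density of 65.7 at 29 dph, over the limit of 45.6. PN89, which overlaps miR-454b, had one of 134 at 17 dph, and PC424, which holds miR-2188, had one of 77.2 at 17 dph, both over the limit of 68.7.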

How the results depend on the processing

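The count of members detected at 29 dph was 8 to 13 under the 6 detection alternatives run, against 11, and at 17 dph 2 to 4, against 2. It was 4 at 17 dph with a limit from the median and MAD, and 4 each with 2 limits added after the data were seen, from empty spots in the rows of the conserved probes and from empty spots up to 100. Directions between stages depended on the scaling, and most of the members counted below were at background at 17 dph. The setting called the authors' values here is the log2 of their table after quantile normalization over all 987 probes, which turned some signs from those of the table itself. Without scaling 3 members were called higher, and with plain background subtraction 2 were, as with the authors' values. Of the 113 other detected conserved probes, 63, 29 and 30 were called higher in these 3 settings. Lower calls numbered 11 with scaling to the 75th percentile, 4 with subtraction, 6 with the authors' values and 1 with cyclic loess. Of the 113 others, 85, 39, 41 and 22 were called lower in the same order. The member counts thus rose with those of the other probes in these settings, except with cyclic loess. There the others had 22 lower calls, as in the main processing. Without background correction 27 of the others and 0 members were called lower. At 1.5-fold 1 member was higher and 3 were lower. The count for the other probes at 1.5-fold is not given, so this is not read as a trait of the members. The median log2 difference was 0.35 without scaling, -2.56 with the 75th percentile, -1.07 with subtraction and -1.01 with the authors' values. Quantile normalization over conserved probes alone called 0 members in each direction, with a median of -0.22. Sign changes that met the call rule were those of miR-455 (1.23) and miR-455b (1.07) without scaling, and of miR-454b (-2.75), miR-460-5p (-1.62) and miR-462 (-2.75) with the 75th percentile. Calls from the authors' values had no condition on spots, as it holds 1 value per probe. The cause of these shifts was not tested. No paired analysis was possible because each stage has 1 array. Of the 11 detected members, 4 lay under a density of 55 at 29 dph, and 3 of these (miR-454b, miR-727 and miR-1788) were not detected with a limit of 5 SD over the mean.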

Other observations

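PC252 shares a run of 15 bases with miR-734, 1 short of the length used to define second probes, and was named after its value was seen. Its density was 49.6 at 29 dph, above the detection limit, and 47.9 at 17 dph, below it, while miR-734 had 38.1 at 29 dph.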
